A study of Mus musculus with 16 samples.

Results

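The IL-4 receptor α chain gene Il4ra, the JAK kinase genes Jak1 and Jak3 and the STAT genes Stat3, Stat4, Stat5a, Stat5b and Stat6 were followed through CD4+ T cells of mice infected with the nematode *Nippostrongylus brasiliensis*. These 8 genes were taken by name from the deposited count matrices, which list 31053 genes for lung and MLN and 32285 for the medLN and MLN run, and all 8 were found in every matrix and entered every test. The rule uses no expression value, but the members were chosen with earlier results of these data known.

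All animals were female 4get mice on the C57BL/6 background, in which green fluorescent protein is made from the same transcript as IL-4, and all were studied 10 days after subcutaneous injection of 500 larvae. An uninfected group was not part of the data analysed here, so no value is a response to infection. In the first experiment CD4+IL-4eGFP+ cells were sorted from the perfused lung and the mesenteric lymph node (MLN) of 2 mice aged 13 weeks, with 1 library per organ and mouse. In the second, cells of the lung-draining mediastinal lymph node (medLN) and the MLN of 2 other mice aged 10 weeks were marked with hashtag antibodies and sorted into 1 library of CD4+IL-4eGFP+ and 1 of CD4+IL-4eGFP- cells, which gives 4 samples per gate. The reporter marks cells that have opened the Il4 locus, whether or not they secrete IL-4 protein, and can include NKT cells. Perfusion does not remove every blood cell from the lung.

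IL-4 binds IL-4Rα, which pairs with the common γ chain (Il2rg) on T cells. JAK1 on the first chain and JAK3 on the second phosphorylate STAT6, which enters the nucleus and acts on Gata3 and other genes of the Th2 program. The other STAT proteins serve other cytokines in the same cell: STAT5A and STAT5B act after IL-2 and IL-7, STAT3 after IL-6, IL-10 and IL-21, and STAT4 after IL-12. A transcript level says nothing of the phosphorylation by which these proteins are switched on.

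The cells used numbered 2462 in MLN 1, 754 in MLN 2, 1082 in lung 1 and 416 in lung 2, and 8074 in the IL-4eGFP+ and 8674 in the IL-4eGFP- library of the nodes. UMIs (unique molecular identifiers, counts of captured transcripts) were summed over the cells of each sample, from 2798232 in lung 2 to 14512767 in MLN 1, and are given as counts per 1000000 UMIs outside the TCR genes (CPM). Il4, whose reporter defined the gates, had 0, 0, 2 and 3 UMIs in the 4 IL-4eGFP- samples against 153 to 188 CPM in the IL-4eGFP+ samples. Summed markers of CD4 T cells summed to 2904 CPM or more in all 12 samples, and those of B cells to 45.4 CPM or less. The gate libraries shared 147 cell barcodes. Each gate was 1 library, so that the gate and the library cannot be told apart in any comparison between gates. The 4 samples of a gate are the MLN and medLN of the same 2 mice, so p-values over them treat organs of a mouse as separate samples.

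Il4ra lies on the forward strand at chr7:125552120-125579474 (GRCm38) and Jak3 at chr8:71676296-71690575, also forward. Jak1 lies at chr4:101152367-101265282 on the reverse strand, Stat4 at chr1:51987148-52107189 on the forward strand and Stat6 at chr10:127642986-127660957 on the forward strand. The other 3 members are neighbours on chromosome 11. Stat5b (chr11:100780731-100850724, reverse strand) is separated by 8626 bases from Stat5a (chr11:100859351-100885169, forward strand), whose end runs 72 bases into the end of Stat3 (chr11:100885098-100939540, reverse strand). In the annotated transcripts 8.21% of the 50-base words of Stat5a also occur in Stat5b, whereas Il4ra, Jak1 and Stat6 share none with any other gene. A read that lies wholly within a shared stretch cannot be given to either gene, and how many reads do was not measured. Jak3 shares its strand and part of its span with Insl3, and Stat4 with the predicted gene Gm28177, which holds all of the 21.7% of Stat4 words that are not its own.

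Promoter sequence is shown for the pair of members with the largest changes between the gates, in opposite directions, and for Stat5b, the member lower in lung than in MLN. Each run is the part of a RefSeq promoter window (250 bases before to 50 after the start, GRCm38.p6) that lies before the first annotated exon base, written 5′ to 3′ on the strand of the gene. The Il4ra run is chr7:125552021-125552119, the Jak3 run chr8:71676133-71676295 and the Stat5b run chr11:100850725-100850831.
Il4ra: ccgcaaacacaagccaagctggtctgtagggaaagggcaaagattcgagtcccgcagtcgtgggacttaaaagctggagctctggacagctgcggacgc
Jak3: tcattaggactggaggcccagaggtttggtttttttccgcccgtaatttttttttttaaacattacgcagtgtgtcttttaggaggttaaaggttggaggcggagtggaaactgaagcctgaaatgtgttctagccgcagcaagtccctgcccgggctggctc
Stat5b: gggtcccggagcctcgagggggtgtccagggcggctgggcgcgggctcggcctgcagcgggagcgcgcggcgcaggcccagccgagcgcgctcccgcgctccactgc
The STAT motifs TTCNNNGAA and TTCNNNNGAA, of which the longer spacing is the one favoured by STAT6, were searched on the whole windows. Both are palindromes, so a match on 1 strand is a match on the other. All 8 members were matched, with 11 windows in all, and 0 of these 11 windows held either motif, against 14.6% of the 32851 windows in the table. Nothing is capitalised for this reason, and the search covers these windows only.

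The comparison of the gates asks how the genes differ between cells with and without an active Il4 locus in the same nodes. Il4ra was the member that differed most: it was lower in IL-4eGFP+ cells by 5.91-fold in the fit. Of the 8 members 1 rose (Jak3) and 6 fell in the IL-4eGFP+ samples at an adjusted p under 0.05, while Stat5a did not pass (edgeR quasi-likelihood test, TMM scaling). This has to be read against a background in which 63% of the 11036 genes tested passed. The median change of the members was -0.27 on the log2 scale, beside -0.02 over all genes tested.

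Il4ra, the chain that binds IL-4, reached 33.4 and 36.3 CPM in the IL-4eGFP+ MLN samples 1 and 2 and 31.1 and 32.7 CPM in medLN 1 and 2. The IL-4eGFP- samples had 152, 169, 187 and 183 CPM in the same order. Every IL-4eGFP- sample was thus far above every IL-4eGFP+ sample, with 33.4 ± 2.18 against 173 ± 16 CPM (mean ± SD, n = 4). The CPM of the gates did not overlap, in either direction, for 58.4% of the 11036 genes tested. The log2 fold change was -2.56 (SE 0.0694, adjusted p = 7.87e-11, edgeR), and with libraries scaled to their total UMIs in place of TMM it was -2.36. The difference lay in the share of cells as well as in the sum: 11.3% to 14.2% of IL-4eGFP+ cells had an Il4ra UMI against 36.5% to 42.4% of IL-4eGFP- cells. After thinning of each cell to 1500 UMIs the range was 4.51% to 6.23% and 20.02% to 25.3%. No cell type that lacks Il4ra was at hand to give a background share.

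Activated T cells raise Cd44, the gene of a receptor for hyaluronan, and 26.4% to 31.3% of IL-4eGFP+ but 4.25% to 6.32% of IL-4eGFP- cells had a Cd44 UMI and none of Foxp3, so the gates were also compared within these cells. Il4ra stood at 30.2, 21.01, 24.2 and 25.5 CPM in IL-4eGFP+ and at 126, 119, 109 and 139 CPM in IL-4eGFP- samples of Cd44 cells. It was 5.35-fold lower in the IL-4eGFP+ gate (log2 -2.42, SE 0.146, adjusted p = 2.20e-08, edgeR), with 92 to 137 such cells per IL-4eGFP- sample. Of the other members Jak3 (log2 0.52), Jak1 (-0.37), Stat4 (-0.82) and Stat6 (-0.41) passed there as well, Stat6 narrowly (adjusted p = 0.0485), and Stat3 and Stat5b did not. Among all genes 2064 of 9201 passed.

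**Figure D1:**
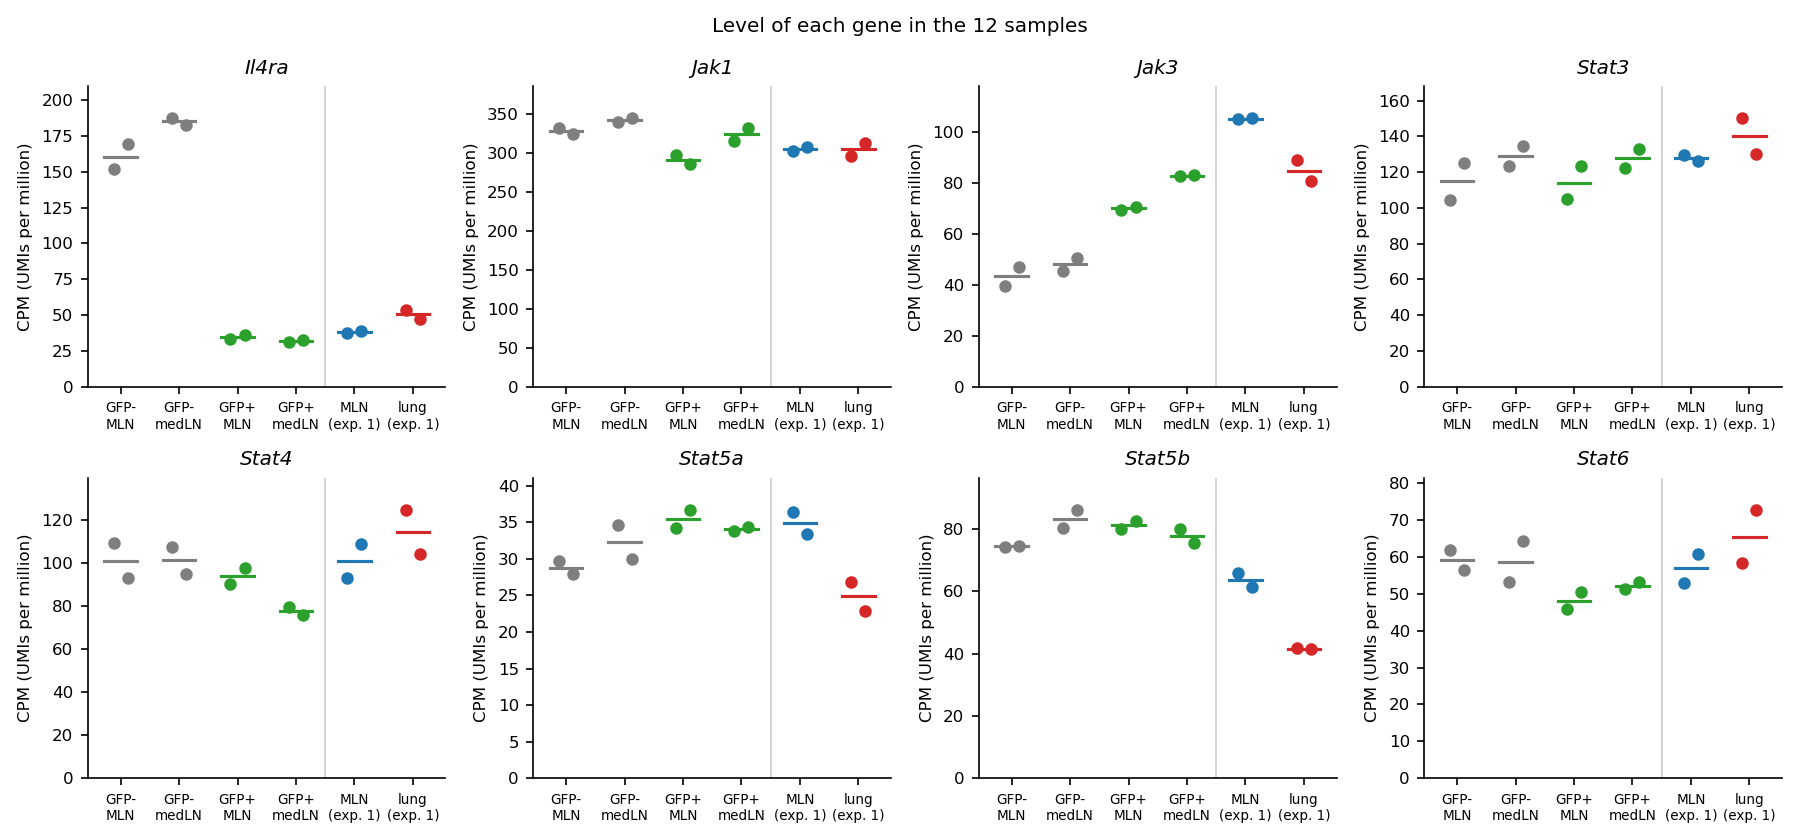
Level of each of the 8 genes in the 12 samples, as CPM on a linear axis that starts at 0, with 1 point per sample and the bar at the mean of the 2 samples of a group. Il4ra stands at 152 to 187 CPM in the IL-4eGFP- samples and at 31.1 to 53.6 CPM in all others, whereas the panels of Jak1 and Stat3 show nearly level groups.

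Jak3, the kinase bound to the common γ chain, went the other way. It was at 69.5 and 70.7 CPM in IL-4eGFP+ MLN 1 and 2 and at 82.7 and 82.9 CPM in medLN 1 and 2, against 39.7, 47.0, 45.4 and 50.7 CPM in the IL-4eGFP- samples. All IL-4eGFP+ samples lay above all IL-4eGFP- samples, where 58.4% of all genes tested did not overlap. Jak3 rose with a log2 fold change of 0.54 (SE 0.0633, adjusted p = 1.03e-05, edgeR) or 0.74 under total-UMI scaling. Jak1, the partner kinase on IL-4Rα, had 297, 286, 315 and 332 CPM in IL-4eGFP+ and 332, 325, 340 and 345 CPM in IL-4eGFP- samples, which overlap. It fell by 0.32 on the log2 scale (SE 0.0385, adjusted p = 1.24e-05, edgeR) under TMM, and its log2 value under total-UMI scaling was -0.13.

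Because Jak1 and Jak3 act as a pair, the share of Jak3 among their joint UMIs was compared, which does not depend on the scaling of libraries. The share was 19.0%, 19.8%, 20.8% and 19.96% in the IL-4eGFP+ samples and 10.7%, 12.6%, 11.8% and 12.8% in the IL-4eGFP- samples. It was higher in 4 of 4 IL-4eGFP+ samples than in any IL-4eGFP- sample, by 7.91 percentage points. An exact permutation test gave a two-sided p of 0.0286, the smallest possible for 4 against 4 unpaired samples. Each IL-4eGFP+ sample has an IL-4eGFP- partner from the same mouse and node, and the tests of the shares did not use this pairing. The p adjusted over the 3 shares tested was 0.0857 and misses 0.05. In the IL-4eGFP+ cells of the first experiment, a separate run with other mice, the share was 25.7% and 25.5% in MLN. It was 23.1% and 20.5% in lung 1 and 2. The IL-4eGFP+ MLN samples of the second experiment had 19.0% and 19.8%, so cells of the same gate and organ differed between the runs.

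Outside the members, Jak2, the kinase of receptors for interferon-γ and several growth factors, followed Jak3. It had 136, 131, 130 and 135 CPM in IL-4eGFP+ and 48.7, 45.7, 45.8 and 46.3 CPM in IL-4eGFP- samples, and rose by 1.32 on the log2 scale (adjusted p = 1.94e-10, edgeR). The MLN samples of the first experiment, also IL-4eGFP+ but a separate run, had 70.2 and 71.2 CPM of Jak2. Tyk2 rose by 0.19 (adjusted p = 0.0424), while the shared receptor chain gene Il2rg fell by 0.18 (adjusted p = 0.00128). Under total-UMI scaling Il2rg did not pass and was 1.02-fold higher, with 702 ± 44.6 against 691 ± 13.2 CPM (SD, n = 4) and overlapping samples, so its direction is not settled.

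Stat6, which carries the IL-4 signal, was at 45.8, 50.5, 51.3 and 53.1 CPM in IL-4eGFP+ and at 61.9, 56.4, 53.2 and 64.2 CPM in IL-4eGFP- samples. The highest IL-4eGFP+ and the lowest IL-4eGFP- sample were nearly equal, but the groups did not overlap, as for 58.4% of all genes tested. Stat6 fell by 0.43 on the log2 scale (SE 0.069, adjusted p = 0.000161, edgeR), and by 0.23 when scaled to total UMIs. Stat4, the STAT of IL-12, had 90.1, 97.7, 79.6 and 76.0 CPM against 109, 92.8, 108 and 94.8 CPM, with overlapping groups. It fell by 0.44 (SE 0.0683, adjusted p = 0.000128, edgeR).

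No difference in the balance of Stat6 to Stat4 was detected: Stat6 made up 37.0% ± 3.70 of the joint UMIs in IL-4eGFP+ and 36.9% ± 3.06 in IL-4eGFP- samples (SD, n = 4). The difference was 0.169 percentage points (exact permutation test, two-sided p = 0.971), with a spread between samples of several points.

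Stat3, Stat5a and Stat5b were close between the gates. Stat3 had 105, 123, 122 and 133 CPM in IL-4eGFP+ and 104, 125, 123 and 135 CPM in IL-4eGFP- samples, which is nearly the same series of values. Its log2 fold change of -0.21 passed in edgeR after TMM (SE 0.0716, adjusted p = 0.0227) but was -0.01 under total-UMI scaling (adjusted p = 0.904). The call was also lost without IL-4eGFP+ MLN 1, IL-4eGFP+ medLN 1, IL-4eGFP- MLN 2 or IL-4eGFP- medLN 2.

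Stat5b, at 79.5 ± 2.82 against 78.8 ± 5.63 CPM (SD, n = 4), likewise fell by 0.18 after TMM (adjusted p = 0.00823, edgeR) and was at 0.02 under total-UMI scaling. Stat5a, at 34.8 ± 1.33 against 30.5 ± 2.89 CPM (SD, n = 4), gave a log2 value of -0.01 after TMM (SE 0.0723, adjusted p = 0.931, edgeR) and 0.19 under total-UMI scaling (adjusted p = 0.0419). The samples overlapped in all 3 genes before scaling by TMM. The scaling shifts all values between the gates: over all genes the median log2 fold change was -0.02 with TMM and 0.18 with total UMIs, and Stat3, Stat5a and Stat5b have no settled direction. By the same token 63% of genes passed with 3451 higher and 3504 lower under TMM, but 5175 were higher and 1996 lower under total UMIs.

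The share of Stat5a among the UMIs of the Stat5 pair was 30.4% ± 0.724 in IL-4eGFP+ and 27.9% ± 1.88 in IL-4eGFP- samples (SD, n = 4), with overlap, a difference of 2.501 percentage points (exact permutation test, two-sided p = 0.0857). Without Foxp3 cells, which were 8.40% to 12.3% of the IL-4eGFP- cells, the groups separated, with a difference of 3.496 points (exact permutation test, p = 0.0286, 0.0429 adjusted over the 3 shares). This test, too, left the pairing of the samples aside.

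**Figure D2:**
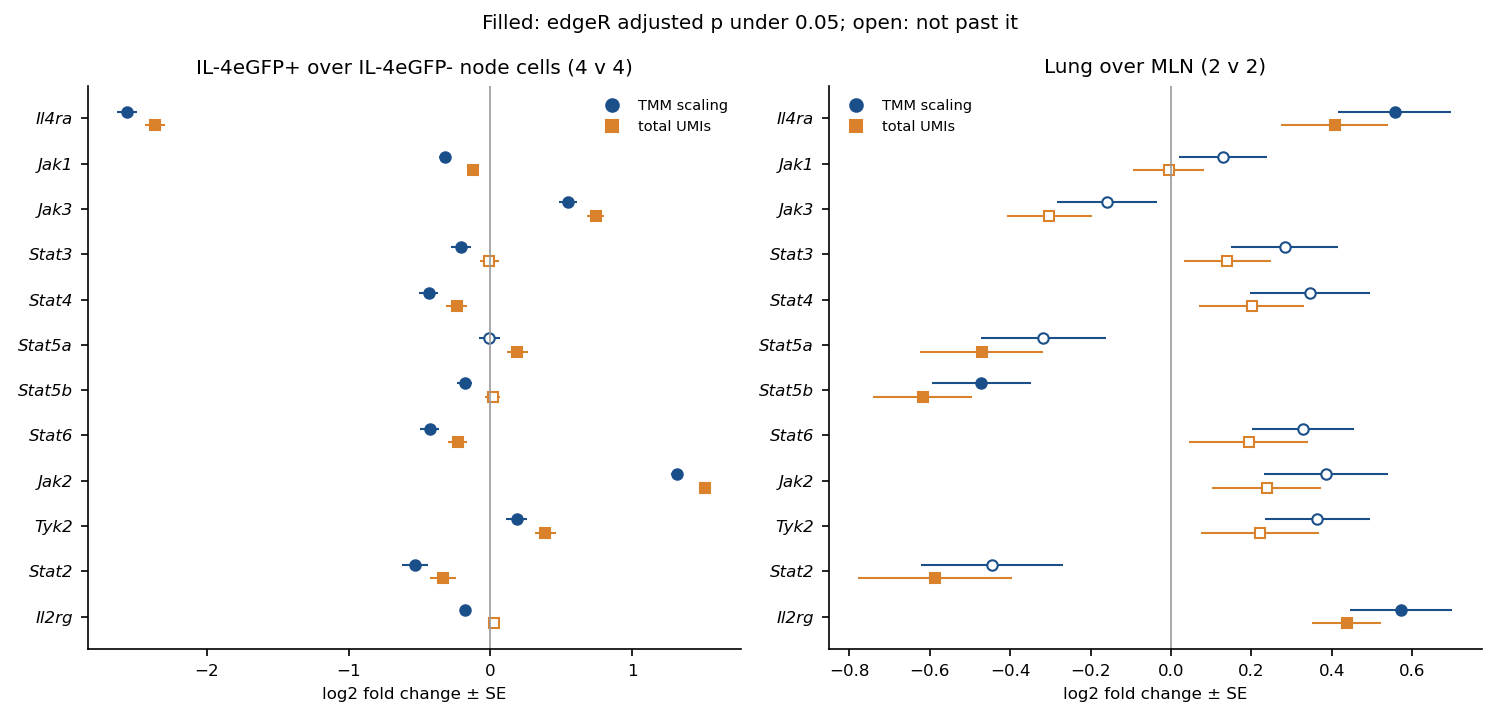
Log2 fold change with its SE for the members and 4 other genes of the pathway, IL-4eGFP+ against IL-4eGFP- node samples (4 against 4) on one panel and lung against MLN (2 against 2) on the other, with TMM as circles, total-UMI scaling as squares, and symbols filled at an adjusted p under 0.05. Il4ra at -2.56 and Jak2 at 1.32 are far outside the 0 line between gates, and under total-UMI scaling Stat3 and Stat5b lie near 0 and Stat5a at 0.19.

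The gate effect was not shown to depend on the node. Of the interaction terms of gate and organ 0 of the 8 members passed, and 20 of 11036 genes did (edgeR). For Il4ra the term was 0.29 (SE 0.114, unadjusted p = 0.0264, adjusted p = 0.601, edgeR), the only member under an unadjusted 0.05. Summed myeloid markers were at 170 to 234 CPM in IL-4eGFP+ and 103 to 124 CPM in IL-4eGFP- samples, and CD8 T cell markers at 6.70 to 11.6 and 19.1 to 24.0 CPM. The myeloid sum was mostly Cst3 (141 to 165 against 91.4 to 108 CPM). Lyz2, Csf1r, Itgam and Fcer1g overlapped between the gates, and C1qa did not. In the edgeR fit 3 of the 4 myeloid genes tested were called higher and 0 lower, with a median log2 value of 1.39. This stands against 63% of all genes called. C1qa, at 0.27 to 1.53 CPM in IL-4eGFP- samples, passed the filter on low counts only through the IL-4eGFP+ samples. The CD8 sum was mostly Cd8b1 (6.61 to 10.3 against 17.9 to 23.7 CPM), and Cd8a overlapped. All 6 myeloid and both CD8 genes were detected in every node sample, and their part in the results was not tested.

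Other genes around the members showed the following between gates. Of 10 listed cytokine ligand genes 6 passed the filter on low counts, and all 6 rose in IL-4eGFP+ cells, Il4 among them by the sort. Il13 had 28.7 to 149 CPM against no UMI in any IL-4eGFP- sample. It thus passed the filter through the IL-4eGFP+ samples only and could only rise, so the count is not a result about the ligands. Of 17 other receptor chains tested 4 rose and 10 fell. Il9r, the receptor of IL-9, rose by 3.95 on the log2 scale. At 0.51 to 1.46 CPM in IL-4eGFP- samples, Il9r too passed the filter only through the IL-4eGFP+ samples, so its rise is not a result. Il12rb1, a chain of the IL-12 receptor, rose by 2.34. The IL-7 receptor gene Il7r fell by 1.55 and the interferon-γ receptor genes Ifngr2 and Ifngr1 by 1.43 and 1.36.

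Inhibitors of the pathway were split, with 5 of 17 higher and 8 lower. Socs1, Socs3 and Cish, feedback inhibitors made after cytokine signals, fell by 1.61, 1.31 and 0.75 on the log2 scale, whereas Ptpn11, which encodes the phosphatase SHP-2, rose by 1.08 and Pias3 by 1.05. Of the adaptor and cofactor genes 0 of 6 rose and 3 fell, among them the STAT6 cofactor genes Ncoa1 (-0.53) and Parp14 (-0.39).

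Of 5 genes listed as STAT6 targets 4 rose in the IL-4eGFP+ samples, namely Il4, which the gate selects, Maf by 3.06, Ccr4 by 2.56 and Gata3 by 2.03, in cells where Il4ra and Stat6 themselves were lower. Of 7 listed STAT5 targets 1 rose and 4 fell, with the survival gene Bcl2 lower by a log2 value of -2.91. In the other lists 2 of 4 STAT3 and 3 of 4 STAT4 targets rose and 1 of each fell. Il21 of the STAT3 and Il18rap of the STAT4 targets were at 0 to 1.37 and 0.37 to 1.40 CPM in IL-4eGFP- samples. Tbx21 was at 0.51 to 1.60 CPM there. All of these passed the filter on low counts only through the IL-4eGFP+ samples, so their rises are not results. All counts are from the same edgeR fit, the same 63% background applies, and the lists are short. They were also chosen with earlier results of these data known, so their counts are a description only.

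Lung and MLN were compared to see how the genes differ between cells in the lung and in a lymph node of the intestine of the same mice, all IL-4eGFP+. Il4ra rose and Stat5b fell in lung, and the other 6 members did not pass (edgeR, 2 samples against 2). The background was high here too, with 31% of 10591 genes past the threshold, and 2 of 8 members is close to that share. The median log2 change of the members was 0.21.

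Il4ra was at 37.9 and 39.1 CPM in MLN 1 and 2 and at 53.6 and 47.3 CPM in lung 1 and 2, with both lung samples above both MLN samples. The CPM of the organs did not overlap, in either direction, for 68.9% of the 10591 genes tested. The log2 fold change was 0.56 (SE 0.14, adjusted p = 0.0147, edgeR), or 0.41 under total-UMI scaling. An Il4ra UMI was found in 16.7% and 16.8% of MLN cells and in 26.6% and 22.8% of lung cells. The lung cells had more UMIs per cell, with medians of 6910 and 5765.5 against 4980 and 4971 in MLN. Thinned to 1500 UMIs, 6.13% and 6.67% of MLN and 8.56% and 7.77% of lung cells had one. The Il4ra call was lost in edgeR without MLN 1 (adjusted p = 0.088), MLN 2 (0.060) or lung 1 (0.119), and DESeq2 gave an adjusted p of 0.115.

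Even in lung, Il4ra stayed far below the IL-4eGFP- node cells of the other experiment, which had 152 to 187 CPM. The order of its levels was medLN and MLN of the IL-4eGFP- gate, then lung, then MLN of the first experiment, and last the nodes of the IL-4eGFP+ gate. Neighbours in this order within the IL-4eGFP+ cells of nodes differ by a few CPM, and no test was made across the experiments, which were separate runs.

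Stat5b had 65.8 and 61.5 CPM in MLN and 41.7 and 41.6 CPM in lung. Both lung samples lay below both MLN samples, where 68.9% of all genes tested did not overlap. It fell by 0.47 on the log2 scale (SE 0.123, adjusted p = 0.0174, edgeR), and by 0.62 under total-UMI scaling. Without MLN 1 the Stat5b call was lost (adjusted p = 0.152), and DESeq2 did not make it (adjusted p = 0.136).

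Stat5a, at 36.4 and 33.5 CPM in MLN and 26.9 and 22.9 CPM in lung, was lower in both lung samples as well but did not pass under TMM (log2 -0.32, adjusted p = 0.152, edgeR). The Stat5a share of the pair was 35.6% and 35.2% in MLN and 39.2% and 35.6% in lung, with exact 95% intervals of 33.1% to 38.1% for MLN 1 and 35.2% to 43.3% for lung 1 that overlap. These intervals cover counting error only. With 2 samples per group an exact permutation test cannot reach a p below 0.333, so none was run on these shares.

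Stat6 had 52.9 and 60.9 CPM in MLN and 58.2 and 72.8 CPM in lung, and Stat4 92.9 and 109 against 125 and 104 CPM. Both sets of samples overlap in CPM. After TMM scaling Stat4 still overlapped, but Stat6 was higher in both lung samples (64.4 and 72.3 against 50.8 and 58.0). On that scale 67.8% of all genes tested did not overlap. Neither gene passed (Stat6 log2 0.33, adjusted p = 0.076, and Stat4 log2 0.34, adjusted p = 0.11, edgeR). With the mouse, as read from the library number, as a block in edgeR both did, with adjusted p = 0.0377 for Stat6 and 0.0424 for Stat4. This makes 4 of 8 members, in a fit that called 3894 of 10591 genes. Stat3 (130 and 126 CPM in MLN, 150 and 130 CPM in lung) and Jak3 (105 and 105 CPM, 88.9 and 80.6 CPM) did not pass (adjusted p = 0.137 and 0.366, edgeR). Jak1 was at 303 and 308 CPM in MLN and 296 and 313 CPM in lung, a log2 value of 0.13 (adjusted p = 0.406).

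**Figure D3:**
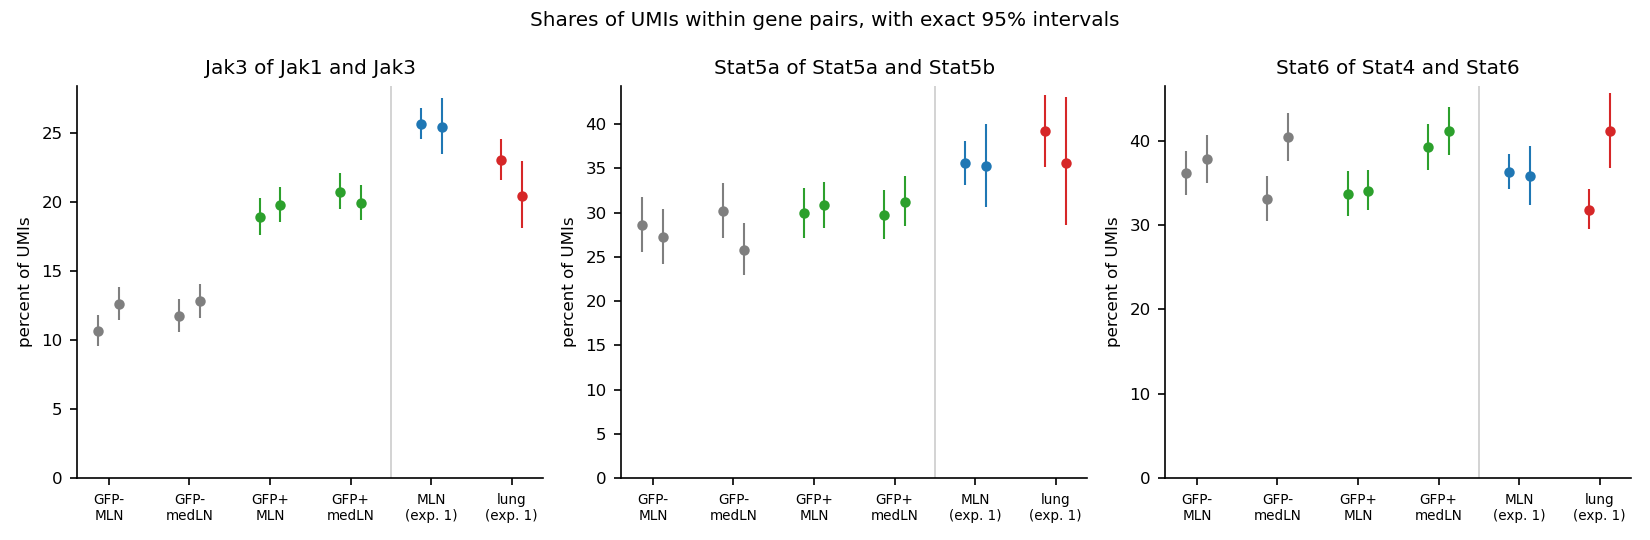
Share, in percent of joint UMIs, of Jak3 in Jak1 and Jak3, of Stat5a in Stat5a and Stat5b and of Stat6 in Stat4 and Stat6, for each of the 12 samples with its exact 95% interval. For Jak3 the IL-4eGFP- samples, at 10.7% to 12.8%, lie apart from the other 8 samples, whereas the Stat6 share shows no such gap.

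Among the partner genes Il2rg rose by 0.57 on the log2 scale (adjusted p = 0.00829, edgeR). Of 18 other receptor chains 9 rose and 3 fell, where 31% of all genes tested passed. Those that rose most were Il10ra (3.14), Ifngr1 (2.91) and Il2ra (2.79), and the signalling chain of the IL-6 family Il6st fell by 2.59.

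Of 7 listed STAT5 targets 5 rose in lung and 0 fell, among them the inhibitor genes Socs2 (3.42) and Cish (3.31) and the kinase gene Pim1 (2.97), while Stat5b fell. Cish stood at 263 to 287 CPM in lung and 29.6 to 31.3 CPM in MLN. Of 5 listed STAT6 targets 3 rose, with Ccr8 at 6.05, Gata3 at 2.03 and Ccr4 at 0.80 on the log2 scale, and of 6 STAT4 targets 5 rose, led by Ifng (4.40), Furin (4.24) and Il18rap (3.28). Of 4 STAT3 targets 0 rose and Il21 fell by 3.16. Of 8 ligands 5 rose and 1 fell, and of 17 inhibitors 2 rose and 3 fell (Ptpn1 by 0.78, Ptpn11 by 0.75 and Ptpn6 by 0.54). Of 7 adaptor genes Irs2 rose by 3.66 and Parp14 fell by 0.75. These counts stand beside 31% of 10591 genes called in the same fit, and those of the inhibitors, adaptors and STAT3 targets are near that share. Ifng, Irs2 and the ligand gene Il15 had 3 to 11, 4 to 7 and 0 to 3 UMIs in the MLN samples. They passed the filter on low counts through the lung samples only and could only rise. Il18rap and Il10, at 6 to 23 and 4 to 44 UMIs in MLN, also passed that filter through the lung samples only. Il21, at 2 to 11 UMIs in lung, passed it through the MLN samples only and could only fall. The changes of Ifng, Irs2, Il15, Il18rap, Il10 and Il21 are therefore not results, and counts with them are a description only. The lists are short and were chosen with earlier results of these data known. The myeloid markers Lyz2 and C1qa were at 0 in both lung samples, and the 6 myeloid markers summed to 121 to 134 CPM over lung and MLN.

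Between medLN and MLN no member passed in either gate. In IL-4eGFP+ cells 0 of 8 members were called against 1.28% of 11266 genes, and 1393 genes had an unadjusted p under 0.05 (edgeR). DESeq2 called 0 members and 113 genes. Stat4 (log2 -0.28, adjusted p = 0.143) and Jak3 (0.23, adjusted p = 0.174) came closest, both with no overlap of the 2 samples per node, as for 43.1% of all genes tested, and with Jak1 they were the 3 members at an unadjusted p under 0.05. In IL-4eGFP- cells 0 of 8 were called against 0.178% of 10684 genes, with 666 genes but no member at an unadjusted p under 0.05. DESeq2 called 0 members and 19 genes, and the mouse as a block in edgeR raised the genes called from 19 to 65 with 0 members. The log2 value of Il4ra was 0.15 (adjusted p = 0.806, edgeR). In the IL-4eGFP+ cells 3 of 18 receptor chains changed, with Il6ra and Il7r higher in medLN by 0.82 and 0.59 and Il12rb1 lower by a log2 value of -0.56, and the STAT6 target Ccr4 was higher by 0.51.

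The members were then followed through sets of cells within a sample, defined by a detected UMI of marker genes. In each set the marker genes themselves were left out, sums were formed inside and outside the set in every sample, and the sample entered the edgeR fit as a block. A UMI of a marker is found more easily in cells with more UMIs. In MLN 1, for example, cycling cells had a median of 7297 UMIs and the others 4815. The comparisons were therefore repeated with the counts of each cell thinned to 1500 UMIs. The sets stayed as defined on all UMIs, so the thinning evens the depth of the counts but not the choice of cells.

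Within the IL-4eGFP- gate, cells with Cxcr3, a chemokine receptor of Th1 cells, had less Il4ra. It was at 44.3, 81.5, 104 and 100 CPM in Foxp3-negative IL-4eGFP- cells with a Cxcr3 UMI against 156, 173, 198 and 195 CPM in those without. It was lower in 4 of 4 samples, with a log2 difference of -1.37 (SE 0.209, adjusted p = 5.15e-05, edgeR), although a sample had only 27 to 48 Cxcr3 cells. The Il4ra levels of these cells rest on few UMIs. No other member passed, against 4.43% of 9422 genes.

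Cells with a UMI of Foxp3, the transcription factor of regulatory T cells, had 2 members higher and 2 lower, against 24.4% of 9807 genes called. Il4ra was at 132, 152, 122 and 122 CPM in Foxp3 cells and at 154, 171, 196 and 193 CPM in the rest, lower in every sample (log2 -0.59, SE 0.102, adjusted p = 0.000455, edgeR). Jak3 was at 60.8, 66.7, 80.9 and 76.5 CPM against 37.7, 44.7, 40.5 and 46.6 CPM, higher in every sample (log2 0.61, SE 0.115, adjusted p = 0.00094, edgeR). The values of the Foxp3 cells for Jak3 did not overlap with those of the rest, but the share of all genes without overlap was not counted here.

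Stat5a, one of the pair that serves IL-2, which regulatory T cells depend on, was at 43.0, 48.2, 57.5 and 45.5 CPM in Foxp3 cells against 28.5, 25.5, 31.5 and 27.4 CPM (log2 0.64, SE 0.128, adjusted p = 0.00148, edgeR). It too was higher in every sample, and at equal depth its log2 value was 0.54 (adjusted p = 0.088). At that depth Stat5b (log2 0.43, adjusted p = 0.0200) and Stat3 (0.37, adjusted p = 0.0127) passed. Stat4 was lower in Foxp3 cells (log2 -0.36, adjusted p = 0.0209, edgeR), which did not hold at equal depth (-0.09, adjusted p = 0.751).

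**Figure D4:**
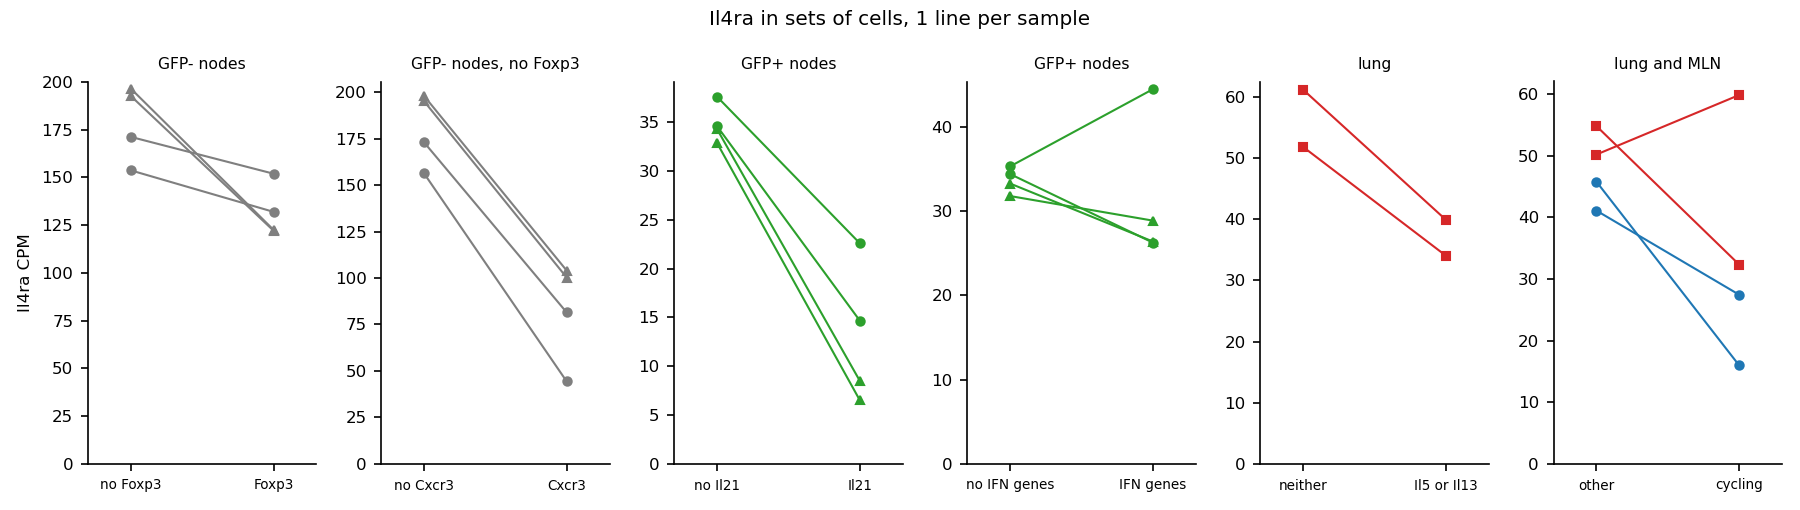
Il4ra level, as CPM, outside and inside each set of cells, with 1 line per sample (circles MLN, triangles medLN, squares lung; grey IL-4eGFP-, green IL-4eGFP+, blue and red the MLN and lung of the first experiment). The lines fall in all 4 samples for Foxp3, Cxcr3 and Il21.

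In the IL-4eGFP+ gate, cells with Il21, the cytokine of follicular helper cells, had less Il4ra. Its level was 14.7, 22.6, 6.52 and 8.50 CPM in the Il21 set against 34.6, 37.6, 32.9 and 34.3 CPM in the rest, lower in 4 of 4 samples (log2 -1.38, SE 0.236, adjusted p = 0.000326, edgeR). The sets held 101, 134, 140 and 127 cells, so their levels rest on few Il4ra UMIs. Stat3, the STAT through which IL-21 itself acts, was higher in each, at 134, 155, 163 and 194 CPM against 103, 120, 119 and 129 CPM (log2 0.40, SE 0.0906, adjusted p = 0.00511, edgeR), and at equal depth it was 0.32 but did not pass (adjusted p = 0.220). Jak2 rose by 0.66 (adjusted p = 0.000215) and Il2rg fell by 0.27 (adjusted p = 0.0175). Members called were 2 of 8, against 9.11% of 10275 genes.

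Interferon-responding IL-4eGFP+ cells, with at least 2 of Ifit1, Ifit3, Isg15, Rsad2 and Usp18, gave 1 member, Stat4, which rose by 0.36 (SE 0.0971, adjusted p = 0.0252, edgeR), against 9.74% of 9870 genes. The Stat4 call was lost without the sample block, under total-UMI scaling, at equal depth, by DESeq2 and without MLN 1, MLN 2 or medLN 1. Il4ra had 26.3, 44.5, 26.4 and 28.9 CPM in these cells and 34.4, 35.3, 33.3 and 31.8 CPM in the rest, higher in 1 sample and lower in 3 (log2 -0.01, adjusted p = 0.994). Stat2, which interferons both act through and induce, rose by 2.40 (adjusted p = 8.11e-10, edgeR). The cells were chosen by genes that interferons induce, so this rise is a description only.

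In lung, cells with Il5 or Il13, the effector cytokines of Th2 cells, had lower values of 3 members, where 9.58% of 9305 genes were called. Il4ra was at 39.9 and 34.0 CPM in these cells of lung 1 and 2 and at 61.2 and 51.8 CPM in the others (log2 -0.62, SE 0.149, adjusted p = 0.000686, edgeR). Stat4 was at 105 and 76.6 CPM against 136 and 113 CPM (log2 -0.44, adjusted p = 0.00291), and Jak1 at 256 and 293 CPM against 318 and 320 CPM (log2 -0.26, adjusted p = 0.0355). Both mice moved the same way in all 3 genes, but none was called without the sample block, at equal depth or by DESeq2. The log2 values in these alternatives stayed near the first ones, between -0.70 and -0.59 for Il4ra, -0.48 and -0.42 for Stat4 and -0.25 and -0.22 for Jak1.

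Cycling cells of lung and MLN, with a UMI of Mki67 or Top2a, had lower values of 5 members against a background of 26% of 9620 genes called. Stat4 was at 74.0, 79.9, 100 and 77.6 CPM in cycling cells of MLN 1, MLN 2, lung 1 and lung 2 and at 98.6, 117, 138 and 117 CPM in the others, lower in all 4 samples (log2 -0.45, adjusted p = 0.0009, edgeR). Stat3 (-0.42), Stat6 (-0.37), Jak1 (-0.32) and Jak3 (-0.26) passed as well. None of them passed at equal depth or without the sample block, although at equal depth the log2 values were still -0.37 for Stat3, -0.43 for Stat6, -0.27 for Jak1 and -0.21 for Jak3. That of Stat4 was smaller, at -0.20. Il4ra was lower in 3 of the 4 samples but not in lung 1 (59.8 against 50.2 CPM) and did not pass (log2 -0.37, adjusted p = 0.127, edgeR).

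**Figure D5:**
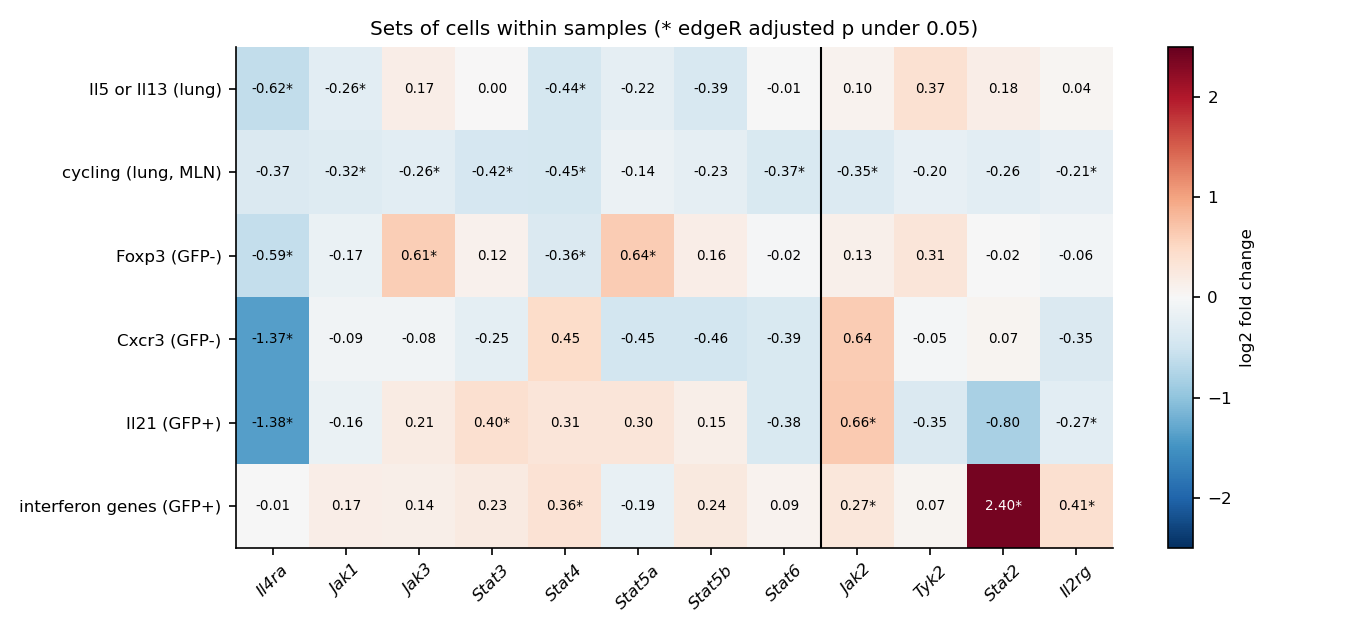
Log2 fold changes of the 8 members and of Jak2, Tyk2, Stat2 and Il2rg in the 6 comparisons of cell sets, with an asterisk at an adjusted p under 0.05. Il4ra is called in 4 of the 6, with values from -1.38 in Il21 cells to -0.59 in Foxp3 cells. Stat4 is called in 4 as well, higher in interferon-responding cells and lower in the rest, and the other members are called in fewer.

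Between the gates the log2 value of Il4ra lay between -2.71 and -2.36 and passed the threshold under each scaling, filter and tool tried, with any 1 sample left out, in each node alone, without Foxp3 cells and in Cd44 cells. It passed in 8 of 8 alternatives for each of the Foxp3, Cxcr3 and Il21 comparisons. A median of 1 of the 8 genes was detected per cell in every sample at 1500 UMIs, and 23.3% to 29.1% of cells had none, so relations between the members were not read from single cells.

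Across the 12 samples, centred within each experiment, the genes whose log2 CPM followed each member best were looked up among 2531 genes of at least 50 CPM in each experiment. For Il4ra these were Peli1 (Pearson r = 0.996), which encodes a ubiquitin ligase, and the ribosomal gene Rps19 (0.989). For Jak3 they were Set (0.975) and Pdcd5 (0.974), for Jak1 Sf1 (0.910) and Il6ra (0.897), and for Stat6 Sp3 (0.896) and Sh3bp1 (0.881). Stat3 was followed by Bcl3 (0.874) and Myl12b (0.716), Stat4 by Satb1 (0.795) and Rasgrp1 (0.790), Stat5a by 2210016F16Rik (0.949) and Gatd3a (0.934), and Stat5b by Gtpbp4 (0.969) and Park7 (0.952). Among the members r was -0.922 for Il4ra with Jak3 and 0.801 for Stat5a with Stat5b. The 12 samples come from 6 libraries of 4 mice and share depth and gate, so these values describe the samples and carry no test. Il4ra and Stat5a themselves were below 50 CPM in at least 1 experiment.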

How the data were processed

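Deposited unnormalized UMI counts per gene and barcode, made by the authors with Cell Ranger on mm10 (GRCm38), were used; per the file headers lung and MLN were processed with version 3.0.1 and the nodes, aggregated over both gates, with 6.1.2. Whether aggregation thinned reads is not given in the sources used here. TCR contigs, UMI counts per contig deposited by the authors, served only as a filter. Cells needed over 500 UMIs, over 500 genes, under 7% mitochondrial UMIs and a novelty over 0.8, with a productive TCRα and TCRβ in lung and MLN and 1 hashtag (HTODemux, Seurat 5.3.0, quantile 0.99) in the nodes; hashtag doublets were left out and no other doublet caller was run. Counts were summed per sample without TCR genes and tested with edgeR 4.0.16 (filterByExpr, TMM, quasi-likelihood, Benjamini-Hochberg over all genes, threshold 0.05), after tests on simulated data. DESeq2 1.42.0, other scalings, no filter, left-out samples, thinning to 1500 UMIs and a replicate block were alternatives; the interaction, total-UMI scaling and Cd44 cells were added after the data were seen. A comparison of cell sets, a choice of cells between the gates and a gene are not reported here. Cell sets had at least 20 cells in a sample. Exact 95% intervals are Clopper-Pearson (scipy 1.17.1). Members and lists were chosen with earlier results of these data known. All members were named, from other lists up to 3 called genes per direction with the largest fold, and the 2 most correlated genes. Hashtag names give the mouse, whereas lung and MLN libraries carry only a number, and the same number was taken as the same mouse. Deviations of samples paired in this way correlated at 0.0393 for lung and MLN, 0.235 and 0.117 for medLN and MLN, and 0.142 to 0.194 between gates.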

Additional observations from a re-analysis of the deposited data

How the results depend on the processing

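Between the gates Il4ra, Jak1, Jak3, Stat4 and Stat6 kept direction and call under each scaling, filter and tool tried, with any 1 sample left out, in each node alone, without Foxp3 cells and in Cd44 cells without Foxp3 (2064 genes called). Stat3 and Stat5b lost the call under total UMIs, by DESeq2, in MLN samples only (adjusted p = 0.114 and 0.318, edgeR) and in Cd44 cells, and Stat3 also in 4 of the 8 fits with 1 sample left out. In lung against MLN 4 members were called with the replicate block and 0 by DESeq2 (1695 genes), and 0 to 4 members with 1909 to 3676 genes when 1 library was left out, the lowest without MLN 1. In medLN against MLN the IL-4eGFP+ samples gave 54 genes without the filter on low counts and 23 to 164 with 1 sample left out (23 without medLN 1, 49 without medLN 2), and the IL-4eGFP- samples 2 genes without the filter, 65 with the replicate block and 98 to 194 with any 1 sample left out. The block changed no other call of a member in these organ comparisons.

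For cells with Il5 or Il13, 0 members and 38 genes were called with no replicate block, 0 and 251 in thinned cells and 0 and 95 by DESeq2. For cycling cells these were 0 and 653, 0 and 383, and 3 and 1390, and 3 to 6 members with 1432 to 2338 genes when 1 library was left out, the lowest without MLN 1. Thinning left 1435 genes for Foxp3, 1 member and 530 genes for Il21, and 0 members and 312 genes for interferon-responding cells. DESeq2 gave 265 genes for Cxcr3, 592 for Il21 and 0 members with 523 genes for interferon-responding cells, where the member was also lost (0 members) with no replicate block and under total UMIs. With 1 sample left out Cxcr3 gave 1 to 2 members (2 without IL-4eGFP- MLN 2) and 165 to 389 genes (165 without MLN 1), Il21 1 to 3 members (1 without IL-4eGFP+ medLN 2) and 597 to 833 genes, and interferon-responding cells 0 to 1 member (0 without MLN 1 or medLN 1) and 621 to 849 genes. Without Foxp3 cells the differences in the share of Stat5a (3.496 percentage points) and Jak3 (8.58) passed after adjustment in the unpaired permutation test.

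Of the members' log2 values that changed sign, that of Stat5b between the gates had passed the test, and that of Stat5a between the gates passed under total UMIs. Under total UMIs they were -0.0051 for Jak1 in lung, 0.0017 for Stat4 in IL-4eGFP- medLN, 0.19 for Stat5a and 0.016 for Stat5b between gates, 0.010 for Stat6 with Il5 or Il13, 0.12 for Stat6 with Foxp3, and 0.13 for both Jak1 and Jak3 with Cxcr3. Stat5a between gates was 0.0057 with DESeq2 size factors, 0.00090 without the filter, 0.0082 by DESeq2, 0.093 without Foxp3 cells, 0.088 in MLN only and 0.15 in Cd44 cells. In thinned cells the values were -0.078 for Stat3 with Il5 or Il13, 0.038 for Stat6 with Foxp3, -0.016 for Stat4 and -0.0038 for Stat5b with Il21, and -0.062 for Jak3 and -0.32 for Stat6 with interferon genes. Il4ra in the latter was 0.00074 with no replicate block.

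With 1 sample left out, signs changed in IL-4eGFP- medLN for Jak1 (-0.0043 to 0.014), Jak3 (-0.038 to 0.24), Stat3 (-0.029 to 0.27), Stat4 (-0.15 to 0.055), Stat5a (-0.00015 to 0.21) and Stat6 (-0.21 to 0.063). They changed between gates for Stat5a (-0.052 to 0.059) and the Stat6 share (-1.19 to 1.35 points), with Foxp3 for Stat6 (-0.17 to 0.071), with Cxcr3 for Jak3 (-0.18 to 0.066), and with interferon genes for Il4ra (-0.22 to 0.082) and Stat6 (-0.048 to 0.17). The causes were not tested.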
